A study of Mus musculus with 6 samples.

Results

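Expression of 33 genes of glycolysis and of the response to low oxygen was read from RNA sequencing of mouse bone marrow cells. The genes were taken by name, 18 glycolytic enzymes, 4 transporters of glucose and lactate, 2 enzymes that set the level of fructose 2,6-bisphosphate and 9 genes of the hypoxia-inducible factor (HIF) pathway, and all 33 were found among the 56750 rows of the deposited table. The cells were labelled LSK (Lin- Sca1+ cKit+), a marrow fraction that holds stem cells and multipotent progenitors, and were sorted by flow cytometry from flushed femurs of C57BL/6 mice. The 3 DIC (DSS-induced colitis) libraries came from mice given 2.5% dextran sulfate sodium (DSS) for 5 days, a chemical that injures the gut lining and brings on colitis. The 3 control libraries came from mice labelled as controls, and what they received is not stated. The labels give 3 mice per group but neither age nor sex, nor whether each library is 1 mouse, so p-values measure the spread between libraries.

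Values are TPM, transcript abundances scaled by transcript length and to 1 total in every library, so levels can be set side by side between genes. Read depth cannot be recovered from them. In DIC 21522 to 22720 genes lay above 0 in a library, and in control 20474 to 21449. The label of the sort was set beside 12 markers of LSK and stem cells. All were above 0 in every library, but some were near the floor, such as Slamf1 at 0.80 to 1.18 TPM and Mecom at 0.07 to 2.97 TPM. Kit, the gene of cKit, was at 82.3 to 95.2 TPM in DIC and 54.2 to 99.5 TPM in control. Ly6a, the gene of Sca1, was at 15.5 to 23.75 TPM in DIC and 19.65 to 49.9 TPM in control. Together the 12 took only 0.0376% to 0.0443% of TPM in DIC and 0.0495% to 0.0606% in control. Cd48 held 35.2% to 52.6% of that sum, and the other 11 markers overlapped between groups, at 238 to 283 TPM in DIC and 235 to 392 TPM in control. A list of 20 neutrophil markers took 23.1%, 15.9% and 19.4% of TPM in DIC 1 to 3, against 4.38%, 12.9% and 3.14% in controls 1, 2 and 4, so control 2 stood apart from the other controls and next to DIC 2. In such bulk samples fewer cells of a type and less RNA per cell cannot be told apart.

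Glycolysis splits glucose into pyruvate in a fixed chain of enzymes. Lactate dehydrogenase then reduces pyruvate to lactate, which leaves the cell through monocarboxylate transporters. Several steps have alternative isozymes, encoded by separate genes, that differ in tissue and regulation. HIF-1, made of an oxygen-regulated alpha subunit and a constant partner, binds DNA at a short core motif and raises transcription of most of this chain when prolyl hydroxylases no longer mark the subunit for destruction. In the marrow, long-term stem cells are known for relying on glycolysis, and neutrophils for living largely by it.

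Of the 33 genes, 0 passed the test in DIC against control. For 6 of the 18 enzymes, Pgam1, Gapdh, Tpi1, Ldha, Aldoa and Hk2, values in all 3 DIC libraries were lower than in any control, as they were for 18.4% of all tested genes. After TPM was rescaled without neutrophil markers this held for Pgam1 and Gapdh, and for 7.82% of all tested genes. The cytokine gene Mif, a HIF target, was lower in the same way, with a mean 0.479 times that of control, but after rescaling DIC 2 lay above control 2. The glucose transporter gene Slc2a3 and the regulator gene Pfkfb4 had higher values in all 3 DIC libraries than in any control. Their means were 3.70 and 2.23 times those of control. The HIF target Vegfa, at 1.40 times, and 7.08% of all tested genes were higher in this way too. Control 2 was close to DIC 2 in Slc2a3 (17.0 and 19.98 TPM) and in Pfkfb4 (25.7 and 27.95 TPM).

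The test was limma on log2(TPM + 1), with Benjamini-Hochberg adjustment over 13496 genes that reached 1 TPM in at least 3 libraries, all 33 members among them. Over all these genes 5 (0.037%) were called higher and 3 (0.0222%) lower at an adjusted p under 0.05. Fold changes were negative for 20 members and positive for 13, beside 58.5% and 41.5% of all tested genes. At an unadjusted p under 0.05, 3 members were higher and 7 lower, or 9.09% and 21.2% of them, beside 6.43% and 13.8% of all tested genes. The number at that level, 10 with all libraries, was 3 without DIC 1, 7 without DIC 2, 5 without DIC 3, 2 without control 1, 15 without control 2 and 4 without control 4. Of all 13496 tested genes 2729 stood at that level with all libraries. With the same libraries left out in that order, the counts over all genes were 1239, 2413, 1579, 1533, 4298 and 1458. Every DIC library lay above every control for 3 members and below every control for 8, or 9.09% and 24.2%, beside 7.08% and 18.4% of all tested genes. The 3 were Slc2a3, Pfkfb4 and Vegfa, and the 8 were Hk2, Aldoa, Tpi1, Gapdh, Pgam1, Ldha, Mif and Ddit4.

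These shares moved with the scaling. When the 20 neutrophil markers were removed and TPM rescaled, the median log2 fold change of all tested genes was 0.10, and it was -0.083 as deposited. With that scaling 7 members lay above every control without overlap (13.5% of all tested genes did) and 2 below (7.82%). Gapdh and Pgam1 were the 2 below, and Slc2a3, Pfkfb4, Vegfa, Hk3, Gpi1, Eno3 and Pkm were the 7 above. The median of the 18 enzymes was -0.15 as deposited and 0.014 after rescaling, and that of the 9 HIF pathway genes was -0.14 and 0.066.

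**Figure D1:**
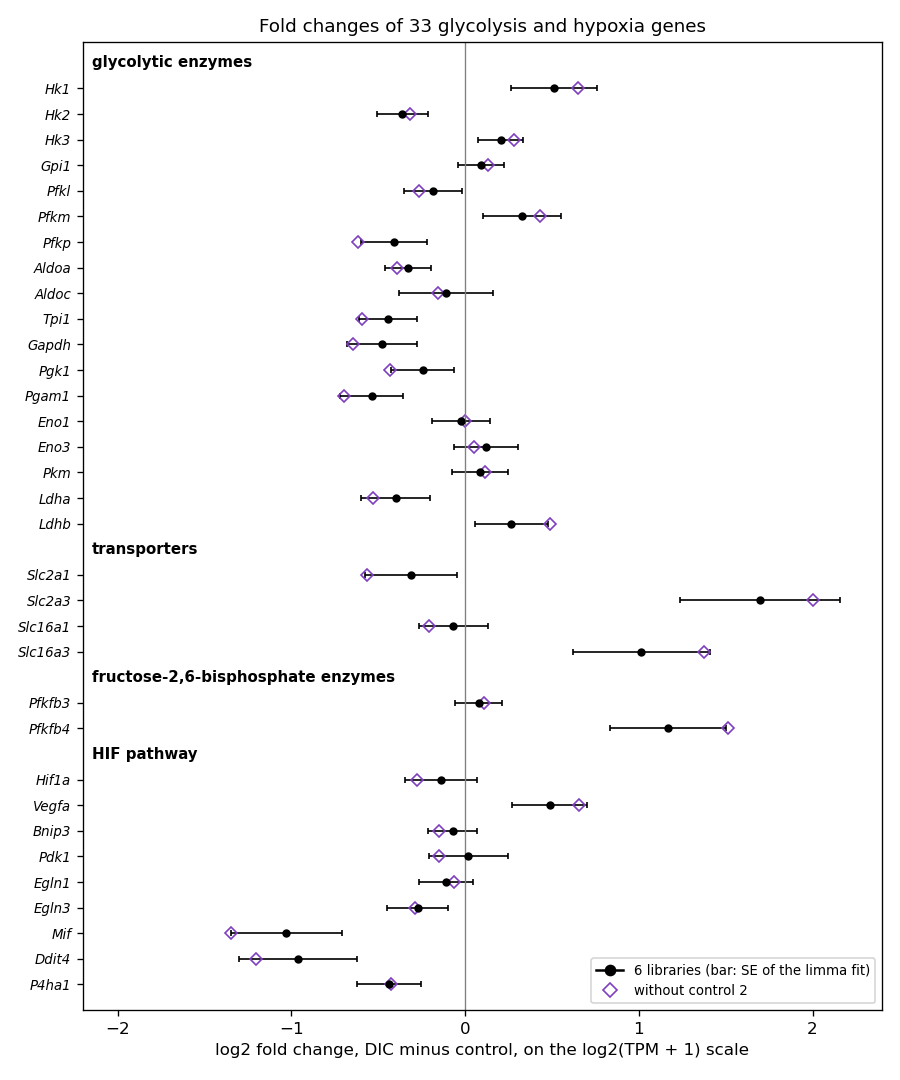
Log2 fold changes of the 33 genes, DIC minus control, on the log2(TPM + 1) scale (horizontal axis), by role. Filled points show the fit of all 6 libraries with its SE, open diamonds the fit without control 2. Slc2a3, Pfkfb4 and Slc16a3 stand to the right at 1.70, 1.17 and 1.01, Mif and Ddit4 to the left at -1.03 and -0.96.

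Promoters are shown so that the HIF core motif can be looked up in them. The 5 genes were chosen after their values were seen. Pfkfb4, Slc16a3 and Mif differed by more than 1 on the log2 scale, as did Slc2a3, the member with no entry, Pgam1 is the enzyme with the lowest fold change and Ldha a classical HIF target among the enzymes. A window of 300 bases, 250 before and 50 from the transcription start, was taken from RefSeq on GRCm38.p6, and 32 of the 33 members had an entry. The search covered ACGTG and GCGTG on both strands. Capitals mark every match, including those of ACGTG on both strands that overlap in CACGTG, the E-box that MYC-type factors bind.
Pfkfb4 promoter, chr9:108991652-108991951, plus strand: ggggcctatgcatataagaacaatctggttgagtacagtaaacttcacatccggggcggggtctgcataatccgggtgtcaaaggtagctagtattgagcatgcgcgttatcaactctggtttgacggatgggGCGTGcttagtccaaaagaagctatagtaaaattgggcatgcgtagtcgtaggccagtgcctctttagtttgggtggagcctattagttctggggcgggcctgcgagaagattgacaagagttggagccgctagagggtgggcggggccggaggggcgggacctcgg
Slc16a3 promoter, chr11:120948817-120949116, plus strand: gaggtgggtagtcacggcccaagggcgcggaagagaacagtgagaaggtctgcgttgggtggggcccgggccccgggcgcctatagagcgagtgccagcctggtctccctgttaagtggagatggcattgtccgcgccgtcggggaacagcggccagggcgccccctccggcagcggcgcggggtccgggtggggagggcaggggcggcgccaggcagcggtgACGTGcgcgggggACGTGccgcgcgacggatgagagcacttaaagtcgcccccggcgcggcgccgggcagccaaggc
Mif promoter, chr10:75860228-75860527, minus strand: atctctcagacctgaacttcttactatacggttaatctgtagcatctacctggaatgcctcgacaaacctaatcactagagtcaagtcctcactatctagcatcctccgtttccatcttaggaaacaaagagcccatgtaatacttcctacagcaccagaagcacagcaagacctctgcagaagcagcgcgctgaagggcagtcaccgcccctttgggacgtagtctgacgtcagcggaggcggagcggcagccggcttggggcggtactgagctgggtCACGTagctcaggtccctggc
Ldha promoter, chr7:46845554-46845853, plus strand: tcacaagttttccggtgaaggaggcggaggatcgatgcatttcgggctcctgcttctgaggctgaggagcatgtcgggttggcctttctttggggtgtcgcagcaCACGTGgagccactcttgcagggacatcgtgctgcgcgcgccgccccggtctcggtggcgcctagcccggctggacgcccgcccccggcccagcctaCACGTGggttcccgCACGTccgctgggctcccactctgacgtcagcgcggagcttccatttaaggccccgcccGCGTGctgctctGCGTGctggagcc
Pgam1 promoter, chr19:41911621-41911920, plus strand: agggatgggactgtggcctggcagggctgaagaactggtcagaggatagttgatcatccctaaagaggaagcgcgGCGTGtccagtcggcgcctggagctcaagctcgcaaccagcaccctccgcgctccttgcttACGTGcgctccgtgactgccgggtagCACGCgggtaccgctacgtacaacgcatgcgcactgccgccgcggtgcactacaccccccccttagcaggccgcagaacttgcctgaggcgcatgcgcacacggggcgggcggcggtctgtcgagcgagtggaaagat

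The core motif stood in at least 1 promoter window of 30 of 32 members (93.8%), beside 67.5% of 9188 tested genes with an entry and 46.7% of all 27025 genes in the promoter table. It was found in 19 of 20 members with negative fold changes and in 11 of 12 with positive ones. The E-box was found in 6 members, or 18.8%, beside 12.2% of tested genes. Pfkfb4 held 1 GCGTG, while the printed window of Ldha held 5 matches of ACGTG and 2 of GCGTG, with 2 E-boxes. Slc16a3 held 2 matches of ACGTG, Mif held 1, and Pgam1 held 1 of ACGTG and 2 of GCGTG. A match is a description of letters and shows no binding.

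The enzymes that prepare glucose for splitting showed mixed differences. Hexokinases trap glucose in the cell by phosphorylation. Hk3, the isozyme typical of white blood cells, was the most abundant, at 169, 154 and 174 TPM in DIC 1 to 3, against 147, 159.5 and 125 TPM in controls 1, 2 and 4 (log2 fold change 0.21 ± 0.13 (SE), limma adjusted p = 0.403). Hk1, the widely expressed isozyme, had 51.1, 37.1 and 51.2 TPM in DIC 1 to 3, against 38.0, 38.9 and 22.0 TPM in controls 1, 2 and 4 (log2 fold change 0.51 ± 0.25 (SE), limma adjusted p = 0.291). Both had higher means in DIC, and the groups overlapped. Hk2, the inducible isozyme, had 22.7, 21.1 and 21.6 TPM in DIC 1 to 3, against 31.9, 30.0 and 23.7 TPM in controls 1, 2 and 4, so that all DIC libraries lay below all controls (log2 fold change -0.36 ± 0.15 (SE), limma adjusted p = 0.241), with control 4 close to the DIC range. Summed over the step, hexokinase transcripts were at 243, 212 and 246 TPM in DIC 1 to 3, against 217, 228 and 171 TPM in controls 1, 2 and 4, a range in which the groups overlapped.

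Glucose-6-phosphate isomerase, encoded by Gpi1, was at 607, 665 and 636 TPM in DIC 1 to 3, against 637, 632 and 527 TPM in controls 1, 2 and 4, and its groups overlapped (log2 fold change 0.091 ± 0.13 (SE), limma adjusted p = 0.726). Phosphofructokinase commits sugar to glycolysis and has liver, muscle and platelet forms. The liver form Pfkl had 31.7, 34.0 and 36.1 TPM in DIC 1 to 3, against 48.9, 34.4 and 34.4 TPM in controls 1, 2 and 4, with DIC values around those of controls 2 and 4 and below control 1 (log2 fold change -0.19 ± 0.17 (SE), limma adjusted p = 0.549). Pfkm, the muscle form and the least abundant, had 10.2, 7.67 and 6.57 TPM in DIC 1 to 3, against 6.56, 7.31 and 4.92 TPM in controls 1, 2 and 4, and control 2 lay between DIC 3 and DIC 2 (log2 fold change 0.33 ± 0.22 (SE), limma adjusted p = 0.428). Pfkp, the platelet form, had 46.8, 44.8 and 50.8 TPM in DIC 1 to 3, against 72.7, 47.4 and 73.5 TPM in controls 1, 2 and 4 (log2 fold change -0.41 ± 0.19 (SE), limma adjusted p = 0.272). Control 2 lay among the DIC libraries, and the other controls lay above them. Exons of Pfkp share 748 bases with Pitrm1 on the opposite strand in GENCODE M21, and the strand setting of the counting is not given, so reads of the pair may be mixed.

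Aldolase cleaves the phosphorylated sugar into trioses. Aldoa, its main form here, had 639, 677 and 656 TPM in DIC 1 to 3, against 929, 757 and 803 TPM in controls 1, 2 and 4, below all controls in each DIC library (log2 fold change -0.33 ± 0.13 (SE), limma adjusted p = 0.236). Aldoc, the brain form, was near the lower limit of the test at 0.82, 2.22 and 1.23 TPM in DIC 1 to 3, against 1.46, 1.39 and 1.79 TPM in controls 1, 2 and 4, and its groups overlapped (log2 fold change -0.11 ± 0.27 (SE), limma adjusted p = 0.838).

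Below this split the chain yields ATP and NADH. Tpi1, which interconverts the trioses, had 298, 350.2 and 326 TPM in DIC 1 to 3, against 523, 357 and 458 TPM in controls 1, 2 and 4, with no overlap (log2 fold change -0.44 ± 0.17 (SE), limma adjusted p = 0.221). Gapdh, the most abundant member and a gene often used to normalise expression, had 2101, 2309.7 and 2149 TPM in DIC 1 to 3, against 3649, 2405 and 3206 TPM in controls 1, 2 and 4, or 2187 ± 109 TPM in the DIC libraries, against 3087 ± 631 TPM in the controls (mean ± SD, n = 3 each). Its groups did not overlap, control 2 was the control nearest to DIC, and the difference missed the threshold (log2 fold change -0.48 ± 0.20 (SE), limma adjusted p = 0.247). Pgk1, the first ATP-forming kinase, was at 180.0, 178 and 178 TPM in DIC 1 to 3, against 266, 163 and 219.8 TPM in controls 1, 2 and 4. Control 2 lay under all DIC libraries in this gene, and the other controls lay above them (log2 fold change -0.24 ± 0.18 (SE), limma adjusted p = 0.467).

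Pgam1, which shifts the phosphate of the resulting acid, had 489.5, 577 and 501 TPM in DIC 1 to 3, against 937, 609.5 and 761 TPM in controls 1, 2 and 4. Its groups did not overlap (log2 fold change -0.54 ± 0.18 (SE), limma adjusted p = 0.213). On the deposited scale this was the lowest fold change among the 18 enzymes, while Hk1 was further from 0 than Pgam1 after rescaling (0.72 and -0.33) and after quantile normalization (0.61 and -0.20), and Hk2 was lower than Pgam1 with the mean level of neutrophil markers as a covariate (-0.57 and -0.091). Rows named as copies of Pgam1 held at most 3.41% of its TPM in a library, those of Eno1 at most 0.212% and those of Tpi1, Mif and Aldoa 0, so reads given to such named rows were few.

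Enolase and pyruvate kinase complete the path to pyruvate. Eno1, the main enolase, had 729, 775 and 725 TPM in DIC 1 to 3, against 892, 778 and 619.6 TPM in controls 1, 2 and 4, and its groups overlapped (log2 fold change -0.023 ± 0.16 (SE), limma adjusted p = 0.947). Eno3, the muscle enolase, was low at 3.55, 3.55 and 4.24 TPM in DIC 1 to 3, against 3.51, 3.01 and 3.68 TPM in controls 1, 2 and 4 (log2 fold change 0.12 ± 0.18 (SE), limma adjusted p = 0.74). Pkm, which encodes pyruvate kinase and makes ATP again, had 1011, 1002 and 966 TPM in DIC 1 to 3, against 1079, 971 and 777 TPM in controls 1, 2 and 4 (log2 fold change 0.088 ± 0.16 (SE), limma adjusted p = 0.783). The groups overlapped in both of these genes too, and in Pkm control 4 was the low one. Levels of the Pkm splice forms are not given by a table of genes.

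Lactate dehydrogenase is a tetramer of A and B chains. Ldha, the A chain and a classical HIF and MYC target, had 953, 1007 and 1014 TPM in DIC 1 to 3, against 1724, 1087 and 1192 TPM in controls 1, 2 and 4. DIC libraries were tightly grouped below all controls, and control 1 was far above the others (log2 fold change -0.40 ± 0.20 (SE), limma adjusted p = 0.3). Ldhb, the B chain, was scarcer, with a higher mean in DIC and overlap, at 50.01, 62.9 and 52.5 TPM in DIC 1 to 3, against 39.9, 62.0 and 37.9 TPM in controls 1, 2 and 4 (log2 fold change 0.27 ± 0.21 (SE), limma adjusted p = 0.488). Summed TPM of all 18 enzymes was 7393, 7909 and 7550.4 TPM in DIC 1 to 3, against 11024, 8143 and 8892 TPM in controls 1, 2 and 4. Each DIC sum was below each control sum, and control 2 was the control nearest to DIC. After rescaling without neutrophil markers the sums were 9617, 9405 and 9369 TPM in DIC 1 to 3, against 11529, 9353 and 9180.4 TPM in controls 1, 2 and 4, so that all DIC libraries lay above controls 2 and 4 and below control 1.

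Of the 4 transporters 0 passed the test. Slc2a3 encodes GLUT3, a glucose transporter of high affinity found in neurons and white blood cells, and had 69.3, 19.98 and 37.4 TPM in DIC 1 to 3, against 9.48, 17.0 and 7.76 TPM in controls 1, 2 and 4. All DIC libraries were higher, DIC 1 most, while DIC 2 and control 2 were close together (log2 fold change 1.70 ± 0.46 (SE), limma adjusted p = 0.212). Slc2a1, which encodes the basal transporter GLUT1, had 8.24, 6.99 and 8.46 TPM in DIC 1 to 3, against 14.4, 6.74 and 10.2 TPM in controls 1, 2 and 4 and overlapped (log2 fold change -0.31 ± 0.26 (SE), limma adjusted p = 0.522).

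Slc16a3 encodes MCT4, the lactate exporter of strongly glycolytic cells, and had 49.2, 23.8 and 28.0 TPM in DIC 1 to 3, against 14.5, 26.1 and 9.43 TPM in controls 1, 2 and 4 (log2 fold change 1.01 ± 0.39 (SE), limma adjusted p = 0.227). Control 2 lay between DIC 2 and DIC 3, and the other controls lay below all DIC libraries. Slc16a1, which encodes MCT1, a transporter that carries lactate in either direction, had 46.9, 33.5 and 40.5 TPM in DIC 1 to 3, against 53.1, 34.4 and 40.2 TPM in controls 1, 2 and 4, with groups that overlapped (log2 fold change -0.069 ± 0.20 (SE), limma adjusted p = 0.862).

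The bifunctional PFKFB enzymes set the level of fructose 2,6-bisphosphate, the strongest activator of phosphofructokinase. Pfkfb4 had 48.8, 27.9 and 34.0 TPM in DIC 1 to 3, against 12.8, 25.7 and 11.1 TPM in controls 1, 2 and 4, or 36.9 ± 10.7 TPM in the DIC libraries, against 16.5 ± 7.96 TPM in the controls (mean ± SD, n = 3 each). All DIC libraries were above all controls, with control 2 next to DIC 2 (log2 fold change 1.17 ± 0.33 (SE), limma adjusted p = 0.212). Pfkfb3 was nearly level over the 6 libraries, at 12.6, 11.8 and 12.8 TPM in DIC 1 to 3, against 11.1, 12.3 and 11.7 TPM in controls 1, 2 and 4 (log2 fold change 0.077 ± 0.14 (SE), limma adjusted p = 0.777).

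In the HIF pathway the regulators showed small differences. HIF-1 is controlled mainly through the stability of its alpha protein, which RNA values do not show. Hif1a, which encodes that subunit, had 28.4, 20.2 and 24.8 TPM in DIC 1 to 3, against 25.3, 21.9 and 34.6 TPM in controls 1, 2 and 4 (log2 fold change -0.14 ± 0.21 (SE), limma adjusted p = 0.735). Egln1 encodes the main prolyl hydroxylase that marks it for destruction and had 11.8, 14.1 and 15.4 TPM in DIC 1 to 3, against 15.1, 15.9 and 13.7 TPM in controls 1, 2 and 4 (log2 fold change -0.11 ± 0.16 (SE), limma adjusted p = 0.715). Egln3, a hydroxylase gene that HIF itself induces, had 7.79, 10.6 and 8.76 TPM in DIC 1 to 3, against 12.4, 10.9 and 10.0 TPM in controls 1, 2 and 4 (log2 fold change -0.27 ± 0.17 (SE), limma adjusted p = 0.404). The groups overlapped in all 3 genes.

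Among 6 further HIF targets, 2 were lower and 1 was higher in DIC without overlap, beside 18.4% and 7.08% of all tested genes. Mif, which encodes macrophage migration inhibitory factor, had 456, 787 and 653 TPM in DIC 1 to 3, against 1660.2, 810.0 and 1486 TPM in controls 1, 2 and 4, or 632 ± 167 TPM in the DIC libraries, against 1319 ± 449 TPM in the controls (mean ± SD, n = 3 each). DIC 1 was lowest, and control 2 almost equalled DIC 2 (log2 fold change -1.03 ± 0.32 (SE), limma adjusted p = 0.212). Ddit4, a stress-induced inhibitor of mTORC1, was scarce, at 0.56, 0.42 and 1.42 TPM in DIC 1 to 3, against 3.83, 1.44 and 2.36 TPM in controls 1, 2 and 4, with DIC 3 next to control 2 (log2 fold change -0.96 ± 0.34 (SE), limma adjusted p = 0.216). With a pseudocount of 0.1 in place of 1 the log2 fold change of Ddit4 was -1.61, and that of Mif was -1.03. Vegfa, the vascular growth factor, went the other way at 32.4, 32.6 and 43.1 TPM in DIC 1 to 3, against 26.2, 32.0 and 19.0 TPM in controls 1, 2 and 4, where DIC 1 and DIC 2 exceeded control 2 by less than 1 TPM (log2 fold change 0.49 ± 0.22 (SE), limma adjusted p = 0.259).

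P4ha1, a collagen prolyl hydroxylase, had 9.69, 11.4 and 13.8 TPM in DIC 1 to 3, against 18.2, 16.2 and 13.8 TPM in controls 1, 2 and 4, and DIC 3 just reached into the control range (log2 fold change -0.44 ± 0.18 (SE), limma adjusted p = 0.244). Bnip3, a mitophagy receptor, had 21.6, 20.1 and 23.4 TPM in DIC 1 to 3, against 25.2, 20.5 and 23.1 TPM in controls 1, 2 and 4. Pdk1, a kinase that inhibits pyruvate dehydrogenase, had 19.3, 18.9 and 15.9 TPM in DIC 1 to 3, against 24.9, 13.8 and 16.1 TPM in controls 1, 2 and 4. The log2 fold changes of Bnip3 and Pdk1 were -0.072 ± 0.14 and 0.019 ± 0.23 (SE, limma adjusted p = 0.793 and 0.968).

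**Figure D2:**
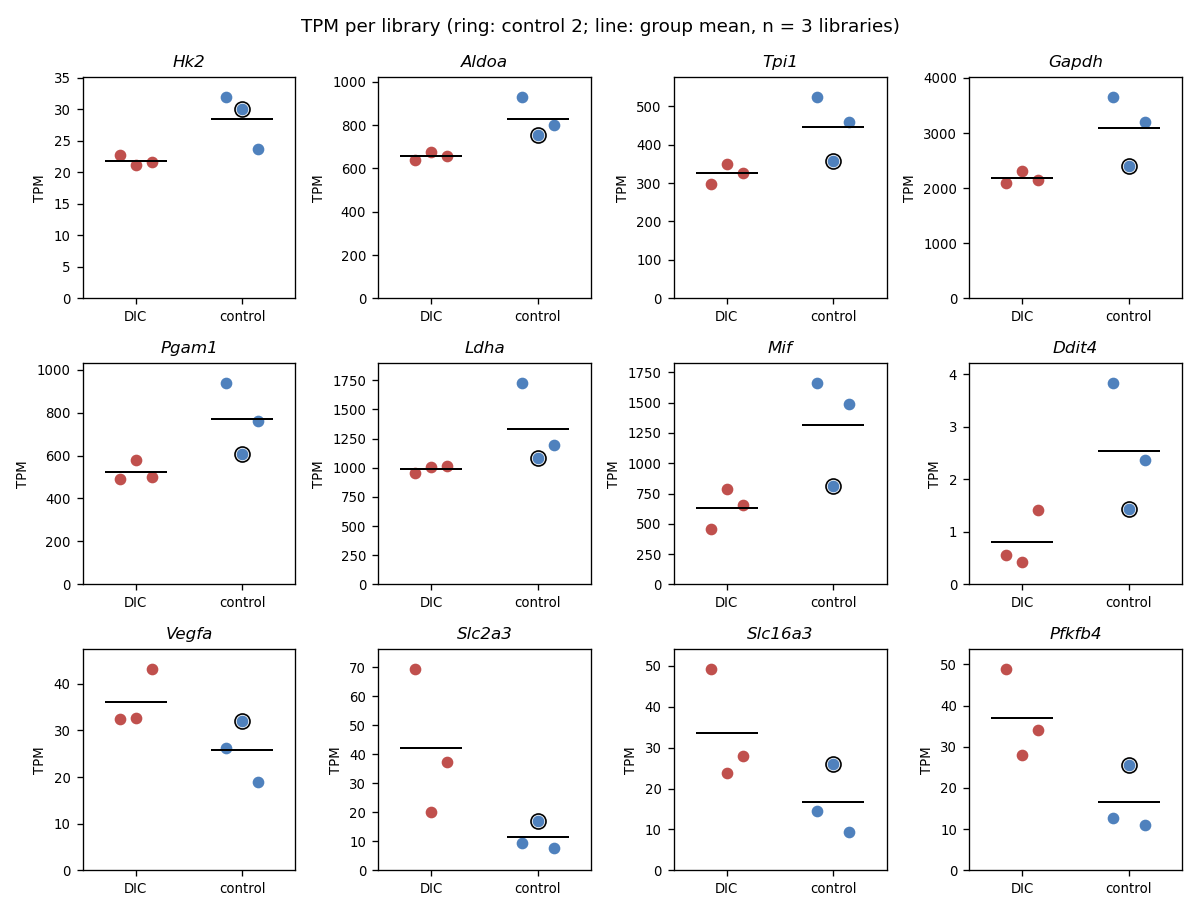
TPM per library (vertical axes, each from 0) of 12 members, with DIC to the left of control, a line at each group mean (n = 3 libraries) and a ring around control 2. In Mif the DIC libraries range from 456 to 787 TPM, below 810.0 TPM in control 2 and the other controls, and in Slc16a3 control 2 sits among the DIC libraries.

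The share of each isozyme within its step does not depend on how a library is scaled. The question was whether the mix differed where the step total could not show it. In all 11 shares were tested by a two-sided exact permutation test over the 6 libraries, which cannot give a p below 0.1, so 0 could pass. Of the summed TPM of Slc2a1 and Slc2a3, Slc2a3 made up 89.4%, 74.1% and 81.5% in DIC 1 to 3, against 39.6%, 71.6% and 43.3% in controls 1, 2 and 4 (exact permutation p = 0.1, adjusted p = 0.44 over 11 shares). It exceeded Slc2a1 in all DIC libraries and in control 2, and was the lesser form in controls 1 and 4. The share of Hk2 among hexokinases was 9.37%, 9.95% and 8.78% in DIC 1 to 3, against 14.7%, 13.1% and 13.8% in controls 1, 2 and 4 (exact permutation p = 0.1, adjusted p = 0.44). Here control 2 sat with the other controls, and no DIC library reached the control range.

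Of the sum of both monocarboxylate transporters, Slc16a3 made up 51.2%, 41.6% and 40.9% in DIC 1 to 3, against 21.4%, 43.1% and 19.0% in controls 1, 2 and 4, with control 2 among the DIC libraries (exact permutation p = 0.3, adjusted p = 0.471). Of both lactate dehydrogenase chains, Ldhb made up 4.99%, 5.87% and 4.92% in DIC 1 to 3, against 2.26%, 5.39% and 3.08% in controls 1, 2 and 4 (exact permutation p = 0.3, adjusted p = 0.471). Hk1 took 19.8% ± 1.99 of hexokinase transcripts in the DIC libraries, against 15.8% ± 2.57 in the controls (SD, n = 3 each, exact permutation p = 0.2). The DIC mean of Hk3, 70.9% ± 1.54, differed from the control mean of 70.3% ± 2.80 by less than the spread between libraries. The shares of Pfkp, Pfkm and Pfkl were 53.0%, 9.13% and 37.9% in DIC, against 58.4%, 5.90% and 35.7% in control (exact permutation p = 0.2, 0.2 and 0.6). Aldoc and Eno3 took at most 0.327% and 0.590% of their steps in any library, so Aldoa and Eno1 carried them (exact permutation p = 0.8 and 0.6).

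**Figure D3:**
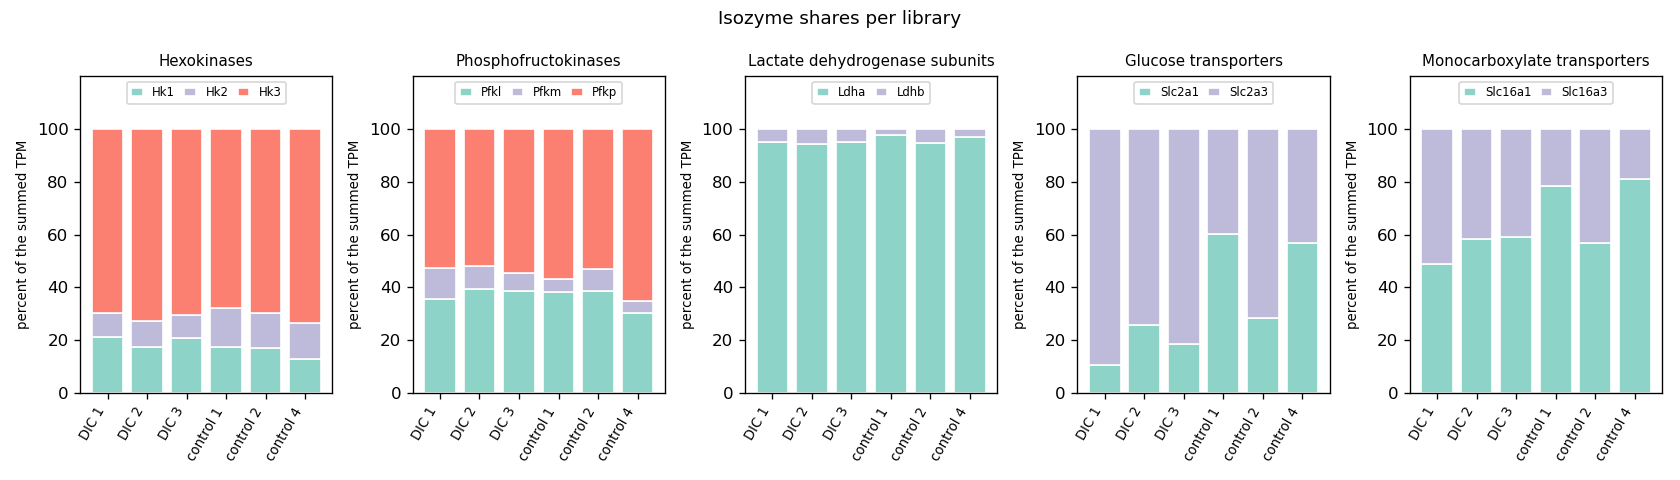
Share of each isozyme in the summed TPM of its step (vertical axes, percent) per library, DIC to the left of control. Slc2a3 fills 74.1% to 89.4% in DIC and 71.6% in control 2, against 39.6% and 43.3% in the other controls, and Hk2 fills 8.78% to 9.95% in DIC and 13.1% to 14.7% in control.

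Neighbouring pathways were read from lists chosen by function, in the same fit. In each list 0 members passed. For pyruvate entry and the tricarboxylic acid cycle, 27 of 31 tested genes ran negative, beside 58.5% of all tested genes. The median log2 fold change was -0.22, beside -0.083 for all tested genes. At an unadjusted p under 0.05 in limma, 12 of 31 (38.7%) were lower, beside 13.8% of all genes. After rescaling without neutrophil markers 16 of 31 were negative, beside 5245 of 13476 tested genes. The median was then -0.013, beside 0.10 for all genes. Mdh1, cytosolic malate dehydrogenase, had 165, 183 and 192 TPM in DIC 1 to 3, against 278, 231 and 267 TPM in controls 1, 2 and 4 (log2 fold change -0.52 ± 0.13 (SE), limma adjusted p = 0.212). Fh1, fumarase, measured 74.0 ± 0.975 TPM in the DIC libraries, against 110.3 ± 20.3 TPM in the controls (mean ± SD, n = 3 each). Pdp1, a phosphatase that activates pyruvate dehydrogenase, measured 5.77 ± 0.246 TPM in the DIC libraries, against 10.9 ± 3.00 TPM in the controls (mean ± SD, n = 3 each). The groups did not overlap in these 3 genes, which were named for the lowest p of the list. Of its 31 tested genes 41.9% were lower and 0 higher without overlap, beside 18.4% and 7.08% of all tested genes. After rescaling 7 were lower and 1 higher, beside 7.82% and 13.5% of all tested genes.

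The pentose phosphate pathway branches off after hexokinase and makes NADPH. Of its 12 genes 5 were negative (median 0.15), beside 58.5% of all tested genes. G6pdx, its entry enzyme, had 307, 227 and 247 TPM in DIC 1 to 3, against 211, 212 and 137 TPM in controls 1, 2 and 4. Pgls, its next enzyme, had 184, 239 and 201 TPM in DIC 1 to 3, against 322, 241 and 312 TPM in controls 1, 2 and 4. They separated the groups in opposite directions (0.49 ± 0.21 and -0.48 ± 0.16, SE, limma adjusted p = 0.244 and 0.213). Over the 12 genes 8.33% were higher and 16.7% lower without overlap, beside 7.08% and 18.4% of all tested genes. After rescaling without neutrophil markers the groups overlapped in Pgls but not in G6pdx. Prps1, which makes the nucleotide precursor PRPP, measured 60.9 ± 7.43 TPM in the DIC libraries, against 78.1 ± 12.7 TPM in the controls (mean ± SD, n = 3 each), with overlap.

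Among 26 further isozymes and side steps of glycolysis 14 could be tested, 6 with negative fold changes (median 0.084), beside 58.5% of all tested genes. Adpgk, an ADP-dependent glucokinase, had 263, 200.4 and 232 TPM in DIC 1 to 3, against 63.8, 162 and 49.5 TPM in controls 1, 2 and 4. DIC libraries were all higher, with control 2 nearer to them than to the other controls (log2 fold change 1.51 ± 0.41 (SE), limma adjusted p = 0.212). G6pc3, a glucose-6-phosphatase needed by neutrophils, had 69.7, 100.4 and 85.9 TPM in DIC 1 to 3, against 137, 106 and 148 TPM in controls 1, 2 and 4 and went the other way (log2 fold change -0.61 ± 0.18 (SE), limma adjusted p = 0.212). Pklr, the pyruvate kinase of red cells and liver, had 6.19, 2.61 and 6.66 TPM in DIC 1 to 3, against 1.5, 1.63 and 2.67 TPM in controls 1, 2 and 4, in which control 4 exceeded DIC 2. Over the 14 tested genes 14.3% were higher and 21.4% lower without overlap, beside 7.08% and 18.4% of all tested genes.

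Of 14 further transport genes 7 could be tested (median 0.059). Emb and Bsg encode embigin and basigin, chaperones that carry monocarboxylate transporters to the membrane. Emb had 118, 111 and 119 TPM in DIC 1 to 3, against 288, 127 and 247 TPM in controls 1, 2 and 4. Bsg had 309.8, 303 and 322 TPM in DIC 1 to 3, against 396, 352 and 375 TPM in controls 1, 2 and 4. Both were lower in every DIC library than in any control (limma adjusted p = 0.213 and 0.248). Without overlap, 28.6% of the 7 tested genes were lower and 0 higher, beside 18.4% and 7.08% of all tested genes. After rescaling without neutrophil markers the groups overlapped in Emb and Bsg, at log2 fold changes of -0.63 and -0.053. Slc2a9, a urate transporter, measured 6.10 ± 1.83 TPM in the DIC libraries, against 3.80 ± 1.61 TPM in the controls (mean ± SD, n = 3 each).

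Of 11 genes of the oxygen-sensing machinery 8 were tested (5 negative, beside 58.5% of all tested genes, median -0.16). Elob, a subunit of the ubiquitin ligase that destroys the alpha subunit, measured 313 ± 29.3 TPM in the DIC libraries, against 444 ± 78.1 TPM in the controls (mean ± SD, n = 3 each). Egln2, the remaining prolyl hydroxylase, measured 30.1 ± 3.18 TPM in the DIC libraries, against 37.8 ± 1.95 TPM in the controls (mean ± SD, n = 3 each), and Arnt, the constant partner of HIF, 19.4 ± 1.92 TPM in the DIC libraries, against 16.2 ± 1.44 TPM in the controls (mean ± SD, n = 3 each). Elob and Egln2 were lower and Arnt higher without overlap (limma adjusted p = 0.213, 0.235 and 0.362), and they were named for the lowest p of the list. Of its 8 tested genes 25% were lower and 12.5% higher without overlap, beside 18.4% and 7.08% of all tested genes. After rescaling without neutrophil markers the groups overlapped in Elob and Egln2 but not in Arnt.

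Of 36 further HIF targets 28 were tested. Their median was -0.031, with 15 negative, beside 58.5% of all tested genes. Without overlap 4 were higher and 6 lower, or 14.3% and 21.4%, beside 7.08% and 18.4% of all genes. After rescaling without neutrophil markers the median was 0.15, beside 0.10 for all genes. On that scale 6 of the 28 were higher and 0 lower without overlap, beside 13.5% and 7.82% of all tested genes. Gbe1, glycogen branching enzyme, had 71.6, 59.8 and 59.2 TPM in DIC 1 to 3, against 34.7, 56.1 and 32.4 TPM in controls 1, 2 and 4. Mxi1, a MYC antagonist, had 66.3, 55.0 and 62.4 TPM in DIC 1 to 3, against 42.9, 52.7 and 41.0 TPM in controls 1, 2 and 4. Ero1a, an oxidase of the endoplasmic reticulum, had 97.1, 78.0 and 91.8 TPM in DIC 1 to 3, against 61.9, 74.4 and 45.0 TPM in controls 1, 2 and 4. All 3 were higher in DIC without overlap, with control 2 highest among controls (limma adjusted p = 0.213, 0.213 and 0.213).

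Markers of other cells moved with these values. In the sum of the 20 neutrophil markers the 6 libraries ran from control 4 at 3.14% of TPM through controls 1 and 2, DIC 2 and DIC 3 to DIC 1 at 23.1%. S100a8 held 40.2% to 45.6% of that sum, and the remaining markers summed to the same order. Single markers could differ from it. Mmp8, Cxcr2 and Retnlg had 13.3, 6.95 and 81.4 TPM in DIC 2, against 14.6, 9.13 and 108.8 TPM in control 2, while the other markers were higher in DIC 2. Stfa2l1 was listed at 0 in control 4. Slc2a3 and Pfkfb4 stood in the order of the marker sum, and the summed enzymes and Mif, on the deposited scale, in the reverse order apart from controls 1 and 4. With the mean log2 level of these markers as a covariate, fitted log2 differences were 0.020 for Slc2a3, -0.068 for Pfkfb4, -0.42 for Slc16a3, -0.043 for Gapdh, -0.091 for Pgam1 and 0.082 for Mif. In that fit 0 members reached an unadjusted p under 0.05, beside 308 of 13496 tested genes. The marker level itself was 9.04 to 10.6 in DIC and 6.90 to 8.80 in control, without overlap. With 6 libraries the fit therefore cannot tell the covariate from the group. The part of neutrophil RNA in the differences was not tested.

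Other lists differed in direction. Of 15 erythroid markers, summed TPM was 2086, 722 and 1529 TPM in DIC 1 to 3, against 564, 775 and 568 TPM in controls 1, 2 and 4. Of 9 mast cell and basophil markers, of which Tpsb2 was listed at 0 in every library, summed TPM was 432, 506 and 599 TPM in DIC 1 to 3, against 1629, 1025 and 3478 TPM in controls 1, 2 and 4, lower in every DIC library. Summed TPM of 11 granulocyte and monocyte progenitor markers was 26131, 32745 and 27931 TPM in DIC 1 to 3, against 34747, 30465 and 34783 TPM in controls 1, 2 and 4. Of 10 endothelial and stromal markers 7 were under 1 TPM in every library, among them Cdh5 and Kdr. The sums of B lineage markers spanned 521 to 646 TPM in DIC and 510.0 to 901 TPM in control, with Ighm as the leading gene. Those of T and NK cell markers spanned 1318 to 1792 TPM in DIC and 1771 to 2229 TPM in control, of which Nkg7 alone held 98.7% to 99.4%, and the other 11 markers summed to 10.0 to 18.6 TPM in DIC and 18.3 to 23.7 TPM in control. Megakaryocyte and platelet markers summed to 236 to 261 TPM in DIC and 104 to 210.4 TPM in control, of which Pf4 held 66.1% to 84.4%. Monocyte and macrophage markers summed to 4955 to 5219 TPM in DIC and 4588 to 7230.3 TPM in control, of which Ly6c2 held 95.5% to 97.2%, and the other 10 markers summed to 191 to 226 TPM in DIC and 191 to 207 TPM in control. The part of these cells in the differences was not tested.

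**Figure D4:**
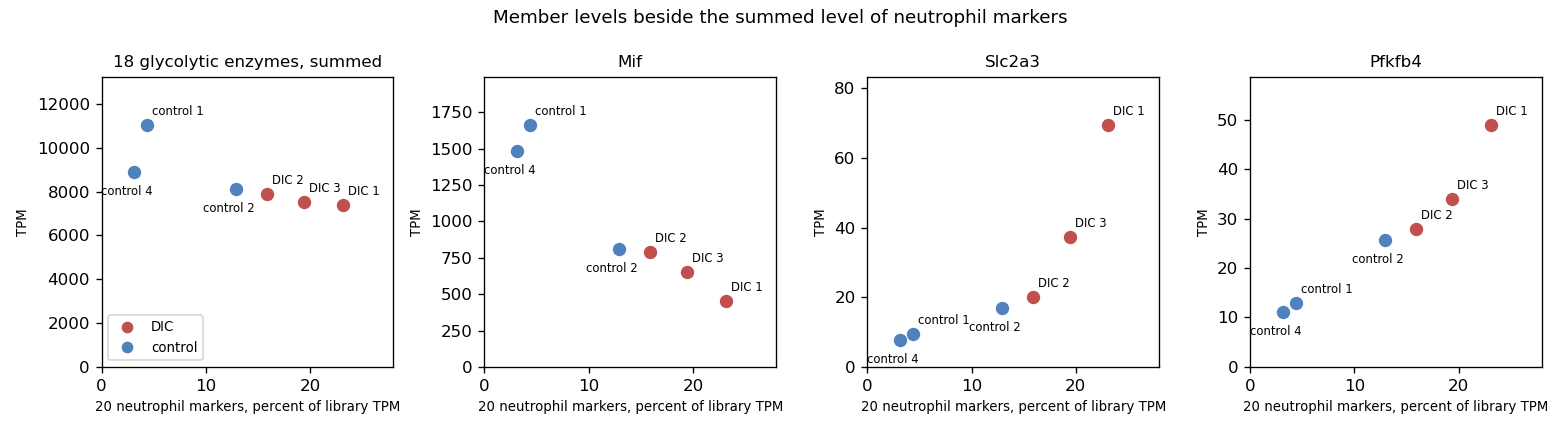
TPM of the 18 enzymes summed and of 3 members chosen after their values were seen (vertical axes, from 0) against the share of TPM of 20 neutrophil markers (horizontal axes, percent), 1 point per library. Control 2, at 12.9%, lies between the other controls, at 3.14% and 4.38%, and the DIC libraries, at 15.9% to 23.1%, on both axes of Slc2a3 and Pfkfb4.

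Without control 2, the library that stood apart, 7 of the 33 members passed limma's threshold, 2 of them higher and 5 lower, where 3.93% of all tested genes were higher and 8.45% lower. Pfkfb4 was higher (1.52 ± 0.25 on the log2 scale with its SE, limma adjusted p = 0.0251), as was Slc2a3 (2.00 ± 0.48, limma adjusted p = 0.0496). Lower were Mif (-1.35 ± 0.24), Pgam1 (-0.69 ± 0.14), Gapdh (-0.65 ± 0.12), Pfkp (-0.61 ± 0.11) and Tpi1 (-0.59 ± 0.12), with limma adjusted p of 0.0278, 0.0345, 0.0321, 0.029 and 0.0355. With each of the other 5 libraries left out in turn, 0 members passed. The remaining controls then had 3.14% and 4.38% of TPM in neutrophil markers, so the groups also lay further apart in that list than with control 2. In the same comparison 12 genes of the tricarboxylic acid list passed lower, and 5 of the further HIF targets passed higher and 3 lower.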

How the data were processed

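RNA was measured in 3 DIC and 3 control libraries, each from 10 ng of RNA amplified by SMART-Seq v4, with paired reads, per the labels. The authors deposited 1 table of TPM values for genes. The submitters' processing notes name fastp 0.19.5, HISAT2 2.1.0, StringTie 2.1.2 and, as build, GRCm39. Annotation release and strand setting: not given in the sources used here. TPM holds no depth, so depth and counting intervals are unknown. Symbols came from GENCODE M21 (GRCm38) by Ensembl identifier, matched for 52081 of 56750 rows. Aldoa had 2 identifiers, and the one with RefSeq transcripts was used. Control columns 1 and 4 were assigned to the group only, since 1 sample carries both numbers in its labels. The 15 pairwise correlations of libraries lay between 0.907 and 0.964, and no 2 libraries were identical.

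Genes that reached 1 TPM in 3 or more of the 6 libraries were fitted with limma 3.58.1 in R 4.3.3 on log2(TPM + 1), group as the only term, with a mean-variance trend, after a test of the code on simulated data. Fold changes on this scale understate changes of low genes. Shares were tested by exact permutation in scipy 1.17.1. Every member is named, and of each other list the 3 tested genes with the lowest p. Alternatives changed the pseudocount, filter, scaling, trend, covariate, block and libraries. The members and lists were chosen with earlier results of these data known.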

Additional observations from a re-analysis of the deposited data

How the results depend on the processing

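Over all genes, 8 calls were made by limma. There were 5 with a pseudocount of 0.1, 0 without the filter and 0 with the neutrophil score as a covariate (3241 and 308 genes at an unadjusted p under 0.05), and 0 to 1671 with 1 library left out (0 without DIC 1, 1239 unadjusted, 0 without control 4, 1458 unadjusted, and 1671 without control 2). Members called were 0, and 0 to 7 with 1 library left out. Members at an unadjusted p under 0.05 were 10, 0 with the covariate, 2 with the replicate block and 2 to 15 with 1 library left out. Over all 13496 tested genes these counts were 2729, 308, 624 and 1239 to 4298. The enzyme median of -0.15 was -0.015 after quantile normalization and 0.014 after rescaling without neutrophil markers, and the HIF median of -0.14 was 0.066 after that rescaling. With the covariate, the transporter median of 0.47 was -0.029 and that of the PFKFB enzymes, 0.62, was -0.054. The numbers 1 and 2 in the column names occur in both groups, and the labels do not say whether same-numbered libraries are pairs. Their deviations from the group means correlated at -0.068 and -0.10, which cannot decide it with so few libraries. The replicate block fit of those 4 libraries, with 1 residual degree of freedom, kept the direction of 31 of 33 members, with Pkm at -0.024 and Hif1a at 0.027.

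The following log2 fold changes of members had the opposite sign to the deposited scale with all libraries. With the covariate they were -0.19 for Hk1, -0.089 for Hk3, -0.12 for Pfkm, 0.0083 for Pfkp, 0.48 for Aldoc, 0.13 for Pgk1, -0.051 for Pkm, -0.058 for Ldhb, 0.064 for Slc2a1, -0.42 for Slc16a3, -0.040 for Pfkfb3, -0.068 for Pfkfb4, 0.0064 for Bnip3 and 0.082 for Mif. After rescaling they were 0.019 for Pfkl, 0.0081 for Aldoc, 0.19 for Eno1, 0.14 for Slc16a1, 0.066 for Hif1a, 0.13 for Bnip3 and 0.087 for Egln1. Quantile normalization gave 0.32 for Eno1 and 0.052 for Slc16a1. With 1 library left out, log2 fold changes ran for Aldoc -0.33 to 0.077, for Eno1 -0.17 to 0.097, for Pkm -0.044 to 0.19, for Slc16a1 -0.21 to 0.098, for Hif1a -0.28 to 0.043 and for Pdk1 -0.15 to 0.25, and differences in isozyme share, in percentage points, ran for Hk3 -0.72 to 2.05, for Aldoc -0.030 to 0.0694 and for Pfkl -0.481 to 3.59. The cause of these changes was not tested. The low-value filter of 5 TPM left out Aldoc, Eno3 and Ddit4. Depth limits are unknown for TPM.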

Other observations

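Ratios of 2 members within a library do not depend on its scaling. In all 8 were computed. Their numerators and denominators were chosen after the values were seen, so they are a description with no test. Gapdh over Pkm was 2.08, 2.305 and 2.23 in DIC 1 to 3, against 3.38, 2.48 and 4.12 in controls 1, 2 and 4. Tpi1 over Gpi1 was 0.491, 0.527 and 0.513 in DIC, against 0.821, 0.565 and 0.869 in control. Pgam1 over Eno1 was 0.671, 0.745 and 0.691 in DIC, against 1.05, 0.783 and 1.23 in control, and Ldha over Pkm was 0.943, 1.01 and 1.05 in DIC, against 1.60, 1.119 and 1.53 in control. In these 4 ratios control 2 was the control nearest to DIC.

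Pfkfb4 over Pfkfb3 was 3.87, 2.37 and 2.66 in DIC, against 1.154, 2.09 and 0.946 in control, and Slc2a3 over Slc2a1 was 8.41, 2.86 and 4.42 in DIC, against 0.657, 2.53 and 0.763 in control. Slc16a3 over Slc16a1 and Mif over Hif1a overlapped between groups.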
